A study of Microtus ochrogaster with 40 samples.

Results

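Oxidative phosphorylation genes of both genomes were followed in single-nucleus RNA sequencing of the prairie vole (Microtus ochrogaster) nucleus accumbens, a part of the ventral striatum. The members were taken by gene name from the 19130 genes listed, in any letter case. Names starting with Nduf, Uqcr, Atp5 or Sdha to Sdhd, and the cytochrome c oxidase names from Cox4i to Cox8, gave 70 genes of the nuclear genome. ND1 to ND6, ND4L, COX1 to COX3, ATP6, ATP8 and CYTB gave the 13 genes of the mitochondrial genome, so that there were 83 members in all. By role, the mitochondrial set held 7 genes of complex I, 1 of complex III, 3 of complex IV and 2 of complex V. The nuclear set held 27 subunit genes of complex I, 6 complex I assembly factors (Ndufaf genes), 4 genes of complex II, 8 of complex III, 16 of complex IV and 9 of complex V. Ndufa4 and its paralog Ndufa4l2 were placed by hand with complex IV here, since NDUFA4 protein is a subunit of cytochrome c oxidase.

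Each of 40 libraries came from 1 animal. For 16 days each vole had been kept as a pair, either with an unfamiliar mate of the opposite sex or with an unfamiliar peer of its own sex. Of the females, 11 had a mate (female mate) and 8 a peer (female peer), and of the males 11 had a mate (male mate) and 10 a peer (male peer). Neither genotype nor age is in the labels used here, and no group was without a partner. The labels do not name an animal's partner, and dependence within pairs was not modelled. Nuclei were released by douncing with detergent and collected on an iodixanol gradient, per the labels.

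Oxidative phosphorylation passes electrons from NADH (complex I) and succinate (complex II) through complex III to oxygen at complex IV, and the proton gradient built on the way drives the ATP synthase, complex V. The subunits of complexes I, III, IV and V come from both genomes, whereas complex II is nuclear-encoded only. Mitochondrial mRNAs are made and kept inside mitochondria, so in a preparation of nuclei they come from mitochondria or free RNA carried along, while the nuclear-encoded mRNAs are made in the nucleus and translated in the cytoplasm. In neurons, most ATP is spent on restoring ion gradients and on synaptic transmission.

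After 7778 called doublets were set aside, 180365 nuclei with at least 500 UMIs (unique molecular identifiers, each counting 1 captured transcript) were kept, with 334706469 UMIs in all. A library held 1798 to 7723 nuclei and 2963122 to 13847419 UMIs. The median depth of a library was 1607 UMIs per nucleus and ranged from 658 to 2206, with the lowest in male mate 2. That library also stood apart in its makeup, with 1.90% of its nuclei in glia-like classes against a median of 22.1% over the libraries. It was the only library that held barcodes under 500 UMIs (6375 of 12519), and these were left out. Whether this cut changed its makeup was not tested. Among pairs of libraries, at most 1.53% of the barcodes of the smaller one also occurred in the other. Nuclei were clustered without the members, and clusters were named "X-like" from marker lists. D1 and D2 medium spiny neuron-like nuclei, the projection neurons that define this tissue, made up 19.3% and 18.4% of nuclei. Glutamate neuron-like nuclei, a type not resident in the nucleus accumbens, made up 18.7%, and 1 of their clusters drew 60.4% of its nuclei from male mate 2.

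The mitochondrial members together gave 2037224 UMIs, or 6087 CPM (counts-per-million, UMIs relative to all UMIs of the same nuclei), and the nuclear members 2972028 UMIs, or 8880 CPM. Every member had at least 1 UMI, and 3 nuclear complex IV isoform genes (Cox6a2, Cox6b2 and Cox8c) were under 1 CPM. No mitochondrial UMI was found in 4.85% of nuclei, and no UMI of a nuclear member in 0.569%.

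The 2 sets differed in how much they varied between libraries. The mitochondrial members took between 0.329% (male mate 1) and 1.12% (female peer 1) of a library's UMIs, with a median of 0.553%. The nuclear members took between 6971 (male mate 1) and 12654 (female peer 2) CPM, with a median of 8469. The library with the lowest share of one set was thus also the lowest in the other, and the 3 libraries highest in the mitochondrial set (female peer 1, female peer 2 and male peer 2) were also the 3 highest in the nuclear set. The log2 ratio of nuclear to mitochondrial member UMIs ran from 0.01 in female peer 7 to 1.19 in female mate 8, with a median of 0.61. Its use here is to compare libraries and classes, since UMIs are not scaled by gene length.

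**Figure D1:**
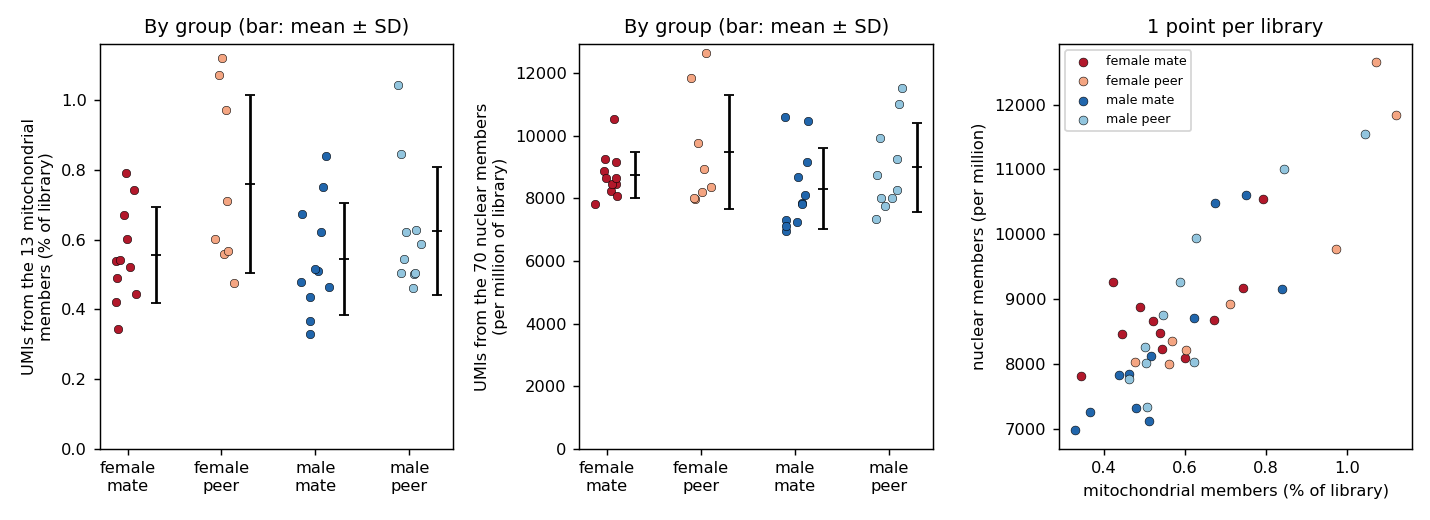
The left and middle panels plot, for each animal, the percent of library UMIs from the 13 mitochondrial members and the CPM from the 70 nuclear members, by group, with the group's mean and SD as bars. The right panel plots the same libraries against each other, from male mate 1 at 0.329% and 6971 CPM at the lower left to female peer 1 (1.12%) and female peer 2 (12654 CPM) at the upper right.

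Gene by gene, the SD over the 40 animals of log2 CPM was 0.36 to 0.89 for the 13 mitochondrial members, with a median of 0.42. For the 66 nuclear members with a mean of at least 10 UMIs per library it was 0.12 to 0.72, with a median of 0.26, and for all 13265 genes at that level the median was 0.26. Among the steadiest members were Ndufs4 (0.12), an accessory subunit of complex I, and Uqcrc2 (0.13), a core subunit of complex III. The most variable were ND4L (0.89), a membrane subunit of complex I, followed by the isoform genes Cox4i2 and Ndufa4l2, which are described with the vascular-like nuclei.

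In neuron-like nuclei most nuclear members were higher, and the mitochondrial members lower, than in glia-like nuclei of the same animals. The neuron-like sum took the named neuron classes except the immature one, and unnamed clusters were in neither sum. Some of those left out had a higher mitochondrial share. Its median was 0.651% in immature neuron-like nuclei and 0.771% in the cluster led by Kcnc2, Pvalb and Sst. It was 0.512% in the cluster led by Gpr101, Gpr165 and Ano2. The mitochondrial members took a median of 0.448% of UMIs in neuron-like nuclei (0.281% to 0.764%) and 0.722% in glia-like nuclei (0.440% to 1.40%). The nuclear members gave a median of 8257 CPM in neuron-like nuclei (6876 to 11236) and 6327 in glia-like nuclei (5287 to 9133). The lineages overlapped over the 40 animals in both sets. The ratio of the sets was above that of the whole library in neuron-like nuclei of all 40 animals, and below it in glia-like nuclei of all 40. Glia-like nuclei were shallower, with a median over animals of 737 UMIs per nucleus against 2073 in neuron-like nuclei. With every nucleus thinned to 500 UMIs, the mean mitochondrial share was 0.517% in neuron-like and 0.650% in glia-like nuclei, and with at least 1000 UMIs it was 0.442% and 1.18%, against 0.468% and 0.743% over all kept nuclei. In such sums, fewer nuclei of a type and less RNA per nucleus cannot be told apart.

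Of the 70 nuclear members, 63 passed the filter on low counts, and 52 of these were higher and 4 lower in neuron-like nuclei by edgeR's quasi-likelihood test with Benjamini-Hochberg adjustment (threshold 0.05, animal as block). Among all 11635 genes tested, 45.0% were higher and 43.5% lower. The median log2 fold change (neuron-like minus glia-like) was 0.33 over the nuclear members and 0.02 over all genes. All 13 mitochondrial members were lower, with a median of -0.77. The 7 nuclear members that did not pass the filter were complex IV isoform genes.

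Among complex I subunits, 21 of 27 were higher and 2 lower, with a median of 0.32. Ndufa9, an accessory subunit close to the quinone site, gave 76.3, 112 and 172 CPM (lowest, median, highest animal) in neuron-like nuclei and 37.7, 62.4 and 152 in glia-like nuclei. It was higher in neuron-like nuclei in all 40 animals, with a log2 fold change of 0.78 ± 0.04 (SE), which was the largest of the nuclear members. Ndufc1 and Ndufb11, small accessory subunits of the membrane arm, were the 2 that were lower (-0.15 and -0.10).

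The assembly factors, which help to build complex I and are not part of it, did not move as 1 group. Ndufaf4 (0.77 ± 0.04) and Ndufaf5 (0.72 ± 0.04) were higher in neuron-like nuclei, and Ndufaf6 and Ndufaf8 were higher as well. Without the mature oligodendrocyte-like nuclei, an alternative chosen after the data were seen, Ndufaf6 (0.10 ± 0.05) and Ndufaf8 (0.01 ± 0.07) were not called, while Ndufaf4 and Ndufaf5 were. Ndufaf7, a methyltransferase, was lower (-0.27 ± 0.04), with 53.7, 73.4 and 122 CPM in neuron-like and 50.7, 88.1 and 138 in glia-like nuclei. Ndufaf2 did not pass the test.

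In complex II, 3 of 4 genes were higher, and all 8 nuclear genes of complex III and all 9 tested of complex IV were higher, with medians of 0.25, 0.34 and 0.50. Cox5a, a matrix-side subunit of complex IV, gave 165, 248 and 344 CPM in neuron-like and 94.1, 141 and 258 in glia-like nuclei, higher in 39 of 40 animals (0.73 ± 0.04). In complex V, 7 of 9 were higher and 1 was lower. Atp5a1, the alpha subunit of the catalytic head, had the largest difference there (0.65 ± 0.04), with 184, 297 and 471 CPM in neuron-like and 138, 194 and 321 in glia-like nuclei. Atp5g2, 1 of the paralogs that encode the membrane ring subunit c, was the gene that was lower (-0.22 ± 0.03).

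ND1, a core subunit of the membrane arm of complex I, gave 354, 562 and 985 CPM in neuron-like nuclei and 653, 992 and 1813 in glia-like nuclei. It was higher in glia-like nuclei in all 40 animals, with a log2 fold change of -0.89 ± 0.05. ATP8 (-0.88) and ND2 (-0.87) had differences of like size, and COX1, the catalytic subunit of complex IV, had -0.65 ± 0.04. The smallest differences were those of ND5 (-0.27 ± 0.05) and ND6 (-0.14 ± 0.04). ND6, whose mRNA is transcribed from the opposite strand to the other 12, gave 63.6, 103 and 323 CPM in neuron-like and 65.6, 112 and 347 in glia-like nuclei. Without the mature oligodendrocyte-like nuclei in the glia-like sum, 11 mitochondrial members were lower and 1 higher in neuron-like nuclei, with a median of -0.23. ATP8 then had -0.18 ± 0.04, ND4L -0.10 ± 0.04 and ND1 -0.34 ± 0.03, while ND6 turned to 0.11 ± 0.05 (edgeR adjusted p = 0.022) and ND5 to 0.09 ± 0.05 (not called). Of the nuclear members 49 were then higher and 4 lower, with a median of 0.31, against 45.2% of all genes higher and 42.3% lower in that fit.

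**Figure D2:**
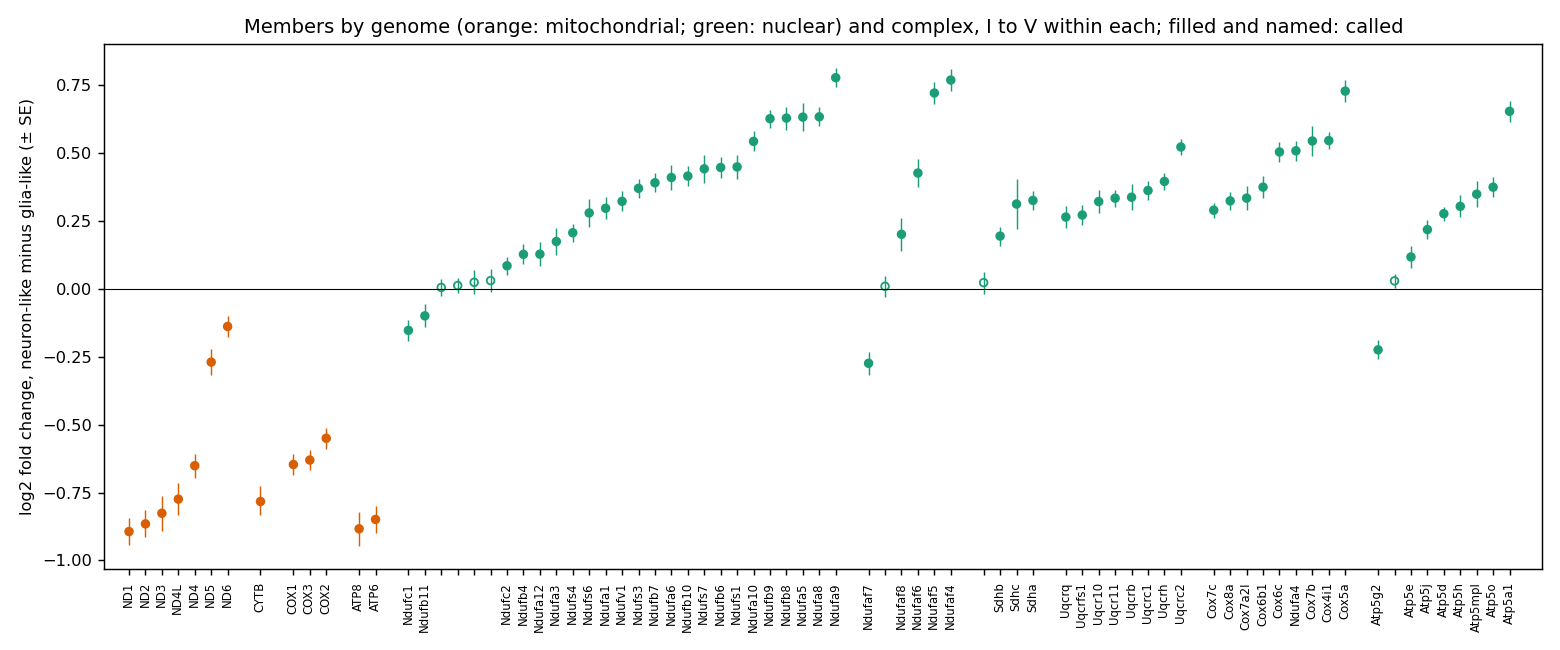
Each point is the log2 fold change of 1 member between neuron-like and glia-like nuclei, with its SE, ordered by genome, complex and size; filled points passed the test and carry the gene's name. The 13 mitochondrial members lie below 0, from ND1 at -0.89 to ND6 at -0.14, and 52 of the 63 nuclear members tested lie above 0 and passed.

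Outside the members, where 45.0% of all genes were higher in neuron-like nuclei and 43.5% lower, genes of the tricarboxylic acid cycle and pyruvate dehydrogenase were higher in neuron-like nuclei for 10 of 15 and lower for 2, with a median of 0.39. Glycolysis genes were higher for 8 of 10 and lower for 1, with the same median. Of the genes of the mitochondrial ribosome, 36 of 64 were higher and 14 lower. Oxidative phosphorylation assembly factors outside the name rule (17 higher and 10 lower of 35) and factors of mitochondrial DNA expression (10 higher and 10 lower of 25) were called in both directions, at shares close to those of all genes for the latter.

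The classes of nuclei differed in both sets, and not in parallel. The mitochondrial share was lowest in the 3 classes of medium spiny neuron-like nuclei, with medians of 0.392% in D1, 0.374% in D2 and 0.369% in the eccentric class, and their ranges over animals overlapped. Parvalbumin interneuron-like (0.459%), astrocyte-like (0.471%), other GABA neuron-like (0.474%) and oligodendrocyte precursor-like nuclei (0.476%) came next, with overlapping ranges. It was 1.23% in mature oligodendrocyte-like nuclei and 1.80% in vascular-like nuclei. Nuclear members were lowest in the glial classes, at 6158 CPM in mature oligodendrocyte-like, 6223 in precursor-like, 6310 in microglia-like and 6535 in astrocyte-like nuclei. They were at 8392 in D1, 8116 in D2 and 8501 in glutamate neuron-like nuclei, and at 13280 in vascular-like nuclei. The glutamate neuron-like class was mixed. Summed over nuclei, a cluster with 28.6% of the class was at 17145 CPM and its other clusters at 6765 to 8632. The log2 ratio of the sets thus ran from -1.07 in mature oligodendrocyte-like to 1.17 in D2 and in parvalbumin interneuron-like nuclei.

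**Figure D3:**
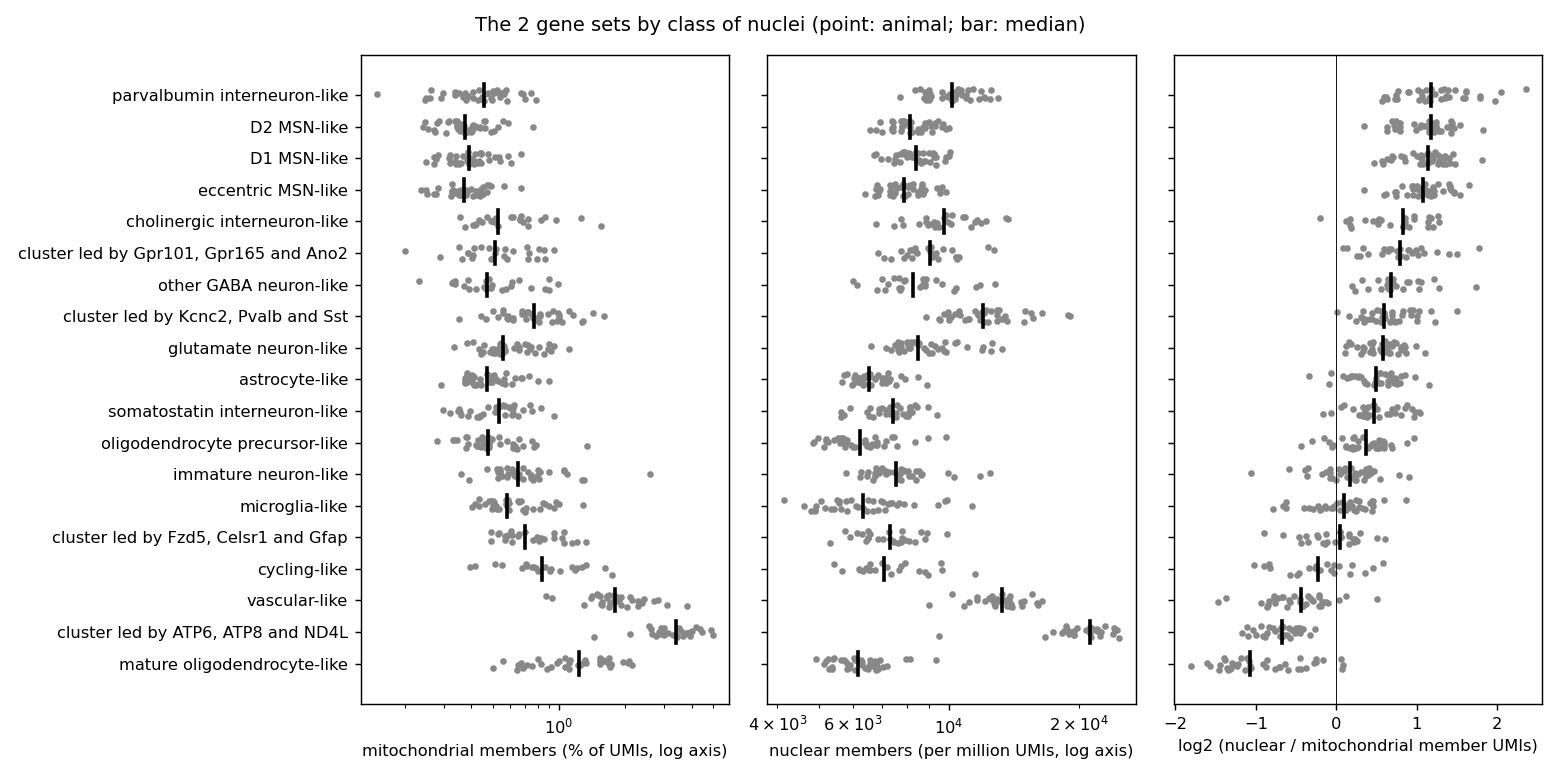
Each row is a class of nuclei and each point an animal with at least 20 nuclei of that class, with the median as a bar, for the mitochondrial percent of UMIs, the CPM of the nuclear members (both on log axes) and the log2 ratio of the sets. Mature oligodendrocyte-like nuclei are high in the first panel (median 1.23%) and low in the second (6158), and vascular-like nuclei are high in both (1.80% and 13280).

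Each class was compared with the other nuclei of the same animals by the same edgeR test. Over 16 classes, 891 of 1222 pairs of a member and a class passed, against 71.8% of the 182027 pairs over all genes. Since most genes differ between classes, the direction of the members carries the description.

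In D1 medium spiny neuron-like nuclei 22 nuclear members were higher and 23 lower of 63, against 42.4% and 38.7% of all genes, with a median of 0.01 (16 higher, 29 lower and -0.03 with DESeq2 size factors, under which 37.1% of all genes were higher and 43.1% lower). In the D2 class 17 were higher and 28 lower, against 40.0% and 40.2%. In the eccentric class, named from Otof, Pcdh8, Tshz1, Foxp2 and other markers, 4 were higher and 37 lower, against 31.6% and 36.9%. All 13 mitochondrial members were lower in each of the 3 classes, with medians of -0.57, -0.61 and -0.60. ATP8, a small subunit of the ATP synthase, had the largest of these differences in D1 nuclei (-0.81 ± 0.08), with 96.5, 175 and 334 CPM over the animals. The assembly factors Ndufaf5 (0.32 ± 0.02) and Ndufaf7 (-0.32 ± 0.03) had the largest differences among the nuclear members in D1 nuclei, in opposite directions.

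A cluster led by Kcnc2, Pvalb and Sst, which held markers of more than 1 interneuron class and stayed unnamed, had nearly all nuclear members higher. There 61 of 64 nuclear members were higher, against 34.7% of all genes, while 39.0% of all genes were lower and no nuclear member was, by edgeR (with DESeq2 size factors 57 were higher and 1 lower, against 31.6% and 42.3% of all genes). The 3 that did not pass were Ndufs4, Ndufaf6 and Ndufaf8. The nuclear members had a median of 0.50, and 12 of 13 mitochondrial members were higher, with a median of 0.39. Ndufa12, an accessory subunit of complex I, gave 57.8, 98.7 and 193 CPM in this cluster, against 37.1, 50.7 and 88.7 over all nuclei of a library, and was higher by 1.06 ± 0.06 on the log2 scale. Uqcrc1, a core subunit of complex III, gave 178, 254 and 435 against 108, 133 and 193 (0.98 ± 0.04). The 61 include Cox8b, an isoform of a small complex IV subunit, which had 168 UMIs in 35 animals here (15.3 CPM over the cluster, 46.7% of its UMIs). It passed the filter on low counts only through this cluster and so had to differ, and its call supports nothing. In parvalbumin interneuron-like nuclei Cox8b had 74 UMIs in 31 animals (12.0 CPM, 20.6% of its UMIs).

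The parvalbumin interneuron-like class differed from that cluster in the mitochondrial set. It was led by Crabp1, Trh and Kit, and its Pvalb level was 77.3 CPM, below the 210 of the cluster led by Kcnc2, Pvalb and Sst. Here 35 of 64 nuclear members were higher and 4 lower, against 29.6% and 37.5% of all genes, whereas 12 of 13 mitochondrial members were lower, with a median of -0.42. Cox6a2, known as the heart and muscle isoform of a complex IV subunit, had 135 of its 170 UMIs (79.4%) in this class, which held 1.45% of nuclei. A Cox6a2 UMI was found in 4.64% of its nuclei, in 36 animals, and in 0.023% of D1 medium spiny neuron-like nuclei. It is among the 35 and passed the filter only through this class, so its call supports nothing. Ndufaf7 was also higher here (0.93 ± 0.06). Immature neuron-like nuclei, which were not in the neuron-like sum, had 2 of 63 nuclear members higher and 48 lower. This compares with 23.7% and 41.0% of all genes, and the median was -0.41. Of the mitochondrial members 1 of 13 was higher there and 0 were lower.

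In astrocyte-like nuclei 48 of 63 nuclear members were lower and 6 higher, against 48.4% and 38.0% of all genes, with a median of -0.25. Ndufa5, an accessory subunit of complex I, had the largest difference (-0.72 ± 0.06), with 30.3, 61.1 and 115 CPM against 61.2, 108 and 186 over all nuclei. Of the mitochondrial members 9 were lower and ND3 was higher (0.35 ± 0.09), in a contrast with other nuclei of both lineages. In oligodendrocyte precursor-like nuclei 55 of 63 nuclear members were lower, against 43.9%, with a median of -0.58, and 12 of 13 mitochondrial members were lower. The 1 nuclear member that was higher there, against 29.4% of all genes, was Ndufaf7 (0.98 ± 0.07), with 0, 159 and 305 CPM against 53.2, 76.7 and 122 over all nuclei.

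Mature oligodendrocyte-like nuclei, which belong to the myelinating lineage of those precursors, had all 13 mitochondrial members higher, with a median of 1.28, from ND6 (0.57 ± 0.07) to ATP8 (1.58 ± 0.11). ND1 gave 765, 1850 and 3273 CPM there, against 420, 735 and 1515 over all nuclei. Of the nuclear members 44 of 63 were lower and 5 higher, against 48.6% and 35.8% of all genes, with a median of -0.26. The largest falls were in the assembly factors Ndufaf6 (-1.56 ± 0.11) and Ndufaf4 (-1.16 ± 0.09). Ndufaf6 gave 0, 12.9 and 41.5 CPM in this class against 41.5, 53.1 and 76.3 over all nuclei, and was at 0 in 3 animals. The class was shallow, with a median over animals of 658 UMIs per nucleus, and its mean mitochondrial share of 1.25% was 2.08% in the 34 animals with at least 20 nuclei of at least 1000 UMIs. Scaling with DESeq2 size factors moved the median of all genes in this contrast from -0.16 to -0.36 and left 13 mitochondrial members higher and 54 nuclear members lower, against 28.2% of all genes higher and 57.0% lower under that scaling.

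Vascular-like nuclei had 51 of 65 nuclear members higher and 8 lower, against 29.1% and 44.1% of all genes, with a median of 0.61, and all 13 mitochondrial members higher, with a median of 1.67. The 8 that were lower held all 6 complex I assembly factors, from Ndufaf7 (-1.26 ± 0.15) to Ndufaf2 (-0.32 ± 0.13), with Ndufs4 and Uqcrc2. The isoform genes Cox4i2 and Ndufa4l2, both known to be induced by low oxygen in other tissues, are among the 51. Both passed the filter on low counts only through this class and so had to differ, and their values are given as a description. Cox4i2 gave 38.2, 246 and 591 CPM in the 36 animals with at least 20 such nuclei, and 75.2% of its 1354 UMIs lay in this class, which held 1.05% of nuclei. A Cox4i2 UMI was found in 25.2% of vascular-like nuclei and in 0.063% of D1 medium spiny neuron-like nuclei. Ndufa4l2 gave 0, 102 and 382 CPM, with 71.5% of its UMIs in the class.

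Among the vascular-like sub-clusters, the one led by Atp13a5, Slc6a20a and Vtn, genes of pericytes, also had the endothelial genes Flt1 and Cxcl12 among its leading genes, and had Cox4i2 at 740 CPM and Ndufa4l2 at 308 CPM. In 3 sub-clusters with Cxcl12, Flt1 and Cldn5, genes of endothelial cells, among their leading genes, Cox4i2 was at 90.6, 125 and 24.9 CPM and Ndufa4l2 at 34.9, 76.8 and 14.0 CPM. In a sub-cluster led by Acta2 and Myh11, genes of smooth muscle, with Slc6a13, Mgp and Col3a1, genes of fibroblasts, they were at 260 and 74.9 CPM. The common paralogs took another order, with Cox4i1 at 360 CPM in the sub-cluster led by Atp13a5 and at 677, 372 and 562 CPM in the 3 with endothelial genes. Ndufa4 was at 383 CPM in the former and at 1096, 446 and 972 CPM in the latter. In the sub-cluster led by Acta2, Cox4i1 was at 494 CPM and Ndufa4 at 520 CPM. The mitochondrial share was 1.36% in the sub-cluster led by Atp13a5 and 2.06% in that led by Acta2. It was 3.00%, 1.34% and 2.31% in the 3 with endothelial genes, and its part in these values was not tested. Cox4i2 itself was among the leading genes of the sub-cluster led by Atp13a5, so these values are descriptions. Vascular-like nuclei made up 0.308% to 3.22% of a library, and Cox4i2 over all nuclei ran from 0.808 to 14.0 CPM.

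A cluster of 2375 nuclei (1.32%) was led by ATP6, ATP8 and ND4L and carried too few markers for a name. Its mitochondrial share had a median of 3.40% and its nuclear members a median of 21303 CPM over 31 animals, both the highest of the classes. Because members led it, its contrasts are a description. There 60 of 64 nuclear members were higher and 3 lower, against 32.5% and 43.4% of all genes. The members that were higher ran from the complex IV subunit genes Cox6b1 (2.08) and Cox7b (2.00) downwards, and the 3 that were lower were assembly factors, Ndufaf7 (-0.96), Ndufaf5 (-0.76) and Ndufaf8 (-0.43).

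Nuclei with a higher mitochondrial share also carried more of the nuclear members. In CPM of nuclear-genome genes, the nuclear members went up in steps from 6274 in nuclei with no mitochondrial UMI to 7912 at 0.25% to 0.5%, 13564 at 1% to 2% and 23442 above 5%. In neuron-like nuclei the same steps went from 6451 to 24337, and in glia-like nuclei from 5707 to 11407. Within every one of the 40 libraries, nuclei at 1% to 5% (11349, 15105 and 19017 CPM) lay above nuclei at up to 0.5% (6153, 6940 and 8919), and these ranges did not overlap. Depth differed between the steps, and its part in this result was not tested. The median depth was 776 UMIs per nucleus in nuclei with no mitochondrial UMI, 1895 at over 0% to 0.25% and 1029 above 5%. Makeup differed too and its part was not tested, with 40.7% glia-like nuclei at no mitochondrial UMI and 14.1% above 5%. A glutamate neuron-like cluster of 9645 nuclei had 1.79% mitochondrial UMIs and 17145 CPM (of all UMIs) of nuclear members. The other clusters of that class had 0.328% to 0.472% and 6765 to 8632 CPM. Within the D1 class the steps went from 6742 with no mitochondrial UMI to 17862 at 2% to 5%.

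**Figure D4:**
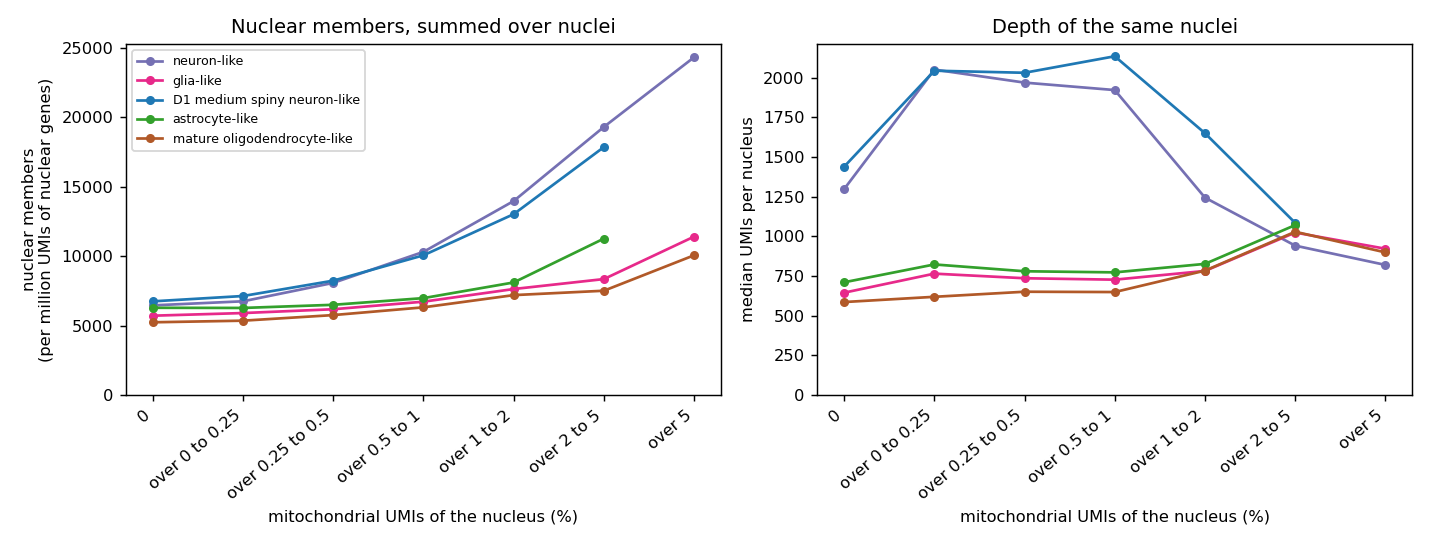
The left panel plots the CPM of the nuclear members among nuclear genes, summed over nuclei binned by their mitochondrial percent, for neuron-like and glia-like nuclei and 3 classes; the right panel plots the median UMIs per nucleus of the same bins. The neuron-like line goes from 6451 at 0% to 24337 above 5% and the glia-like line from 5707 to 11407.

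The ratio between nuclei at 1% to 5% and nuclei at up to 0.5% was 2.15 for the nuclear members (2.11 in neuron-like and 1.32 in glia-like nuclei). It was 1.73 for glycolysis genes, 1.49 for the tricarboxylic acid cycle and pyruvate dehydrogenase, 1.28 for the mitochondrial ribosome, 0.942 for assembly factors outside the name rule and 0.738 for factors of mitochondrial DNA expression. In glia-like nuclei the ratio was 1.08 for glycolysis, 1.08 for the tricarboxylic acid cycle list and 0.994 for the mitochondrial ribosome. It was 0.786 there for the assembly factors outside the name rule and 0.728 for factors of mitochondrial DNA expression. In neuron-like nuclei these were 1.80, 1.53, 1.27, 0.982 and 0.738. All other nuclear genes together make up the rest of the same total. Their ratio of 0.992 over all nuclei therefore follows from that of the members and is no separate baseline. The part of depth and of the mix of clusters in these ratios was not tested.

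Above 5% of mitochondrial UMIs, a limit often used to discard barcodes, lay 1826 barcodes (1.01%). Of these 41.5% were in the cluster led by ATP6, ATP8 and ND4L, 23.0% were glutamate neuron-like, 12.0% mature oligodendrocyte-like and 7.67% vascular-like. In the D1 class 0.132% of nuclei lay above that limit.

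Across libraries most nuclear subunit genes were higher where the mitochondrial share was higher. The mitochondrial percent of each library was entered as a covariate on a log2 scale, with mitochondrial genes left out of the table and of the library sizes. By edgeR's quasi-likelihood test with Benjamini-Hochberg adjustment, 57 of 67 nuclear members were higher and 1 lower in libraries with a higher share, against 14.7% and 12.2% of all 13734 nuclear genes. The median coefficient, the log2 change per doubling of the share, was 0.48 over the nuclear members and -0.02 over all genes. By role, 25 of 27 complex I subunits (median 0.46), 4 of 4 of complex II (0.40), 7 of 8 of complex III (0.50), 12 of 13 of complex IV (0.59) and 9 of 9 of complex V (0.57) were higher. Of the 6 assembly factors none was higher by edgeR, and Ndufaf5 was lower (-0.31 ± 0.08, adjusted p = 0.0029). For 6 genes these counts are near the shares of 14.7% and 12.2% over all nuclear genes. The coefficients of the 6 ran from -0.31 to 0.03 with a median of -0.05.

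The largest coefficients were those of Ndufa4l2 (1.46 ± 0.35) and Cox4i2 (1.21 ± 0.34), whose UMIs lie mostly in vascular-like nuclei, then Cox7a1 (0.82 ± 0.30, 0.59 and not called without female peer 1), Cox6b1 (0.78 ± 0.08), Cox7b (0.76 ± 0.08), Uqcrb (0.66 ± 0.10), Atp5e (0.65 ± 0.08), Ndufa5 (0.64 ± 0.09), Atp5a1 (0.63 ± 0.09) and Cox8a (0.62 ± 0.08). Cox6b1, a peripheral subunit of complex IV, gave 103, 150 and 289 CPM over the libraries, and Cox7b, a transmembrane subunit, gave 67.0, 90.9 and 167. At the other end, Ndufs4 (0.01 ± 0.05), Uqcrc2 (0.11 ± 0.06) and Ndufa9 (0.19 ± 0.10) did not pass the test. Among the other lists, 29 of 65 genes of the mitochondrial ribosome, 9 of 15 of the tricarboxylic acid cycle list and 8 of 10 glycolysis genes were higher, and 7 of 35 other assembly factors and 1 of 25 factors of mitochondrial DNA expression were, against 14.7% of all genes.

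Within classes the number of members that passed ranged from 0 to 57. In glutamate neuron-like nuclei 56 of 63 nuclear members were higher, against 14.2% of all genes, with Atp5a1 (0.80 ± 0.12) and Uqcrb (0.78 ± 0.13) first. Without male mate 2, the library that held most of 1 cluster of this class, 56 were higher as well. Another cluster of the class, with 9645 of its 33705 nuclei, had 1.79% mitochondrial UMIs and a median of 837 UMIs per nucleus, against 0.328% to 0.472% in the other 4 clusters. Its share of the glutamate neuron-like nuclei differed between libraries, with 5.85% as the lowest (male mate 2), a median of 27.8% and 79.0% as the highest (female peer 1). Without that cluster, an alternative chosen after the data were seen, 51 of 63 nuclear members were higher in the class, against 8.34% of all genes. Over all nuclei without it, 56 of 67 were higher, against 13.2% of all genes, and 1 was lower. In both fits the covariate was still the share over all kept nuclei, with that cluster included. That cluster made up 0.529% to 33.2% of a library's nuclei, so these fits do not remove it from the library share. In D1 and D2 medium spiny neuron-like nuclei 26 and 27 of 63 were higher, against 3.18% and 3.48%, with medians of 0.26 and 0.27. In mature oligodendrocyte-like nuclei 11 of 59 were higher, against 1.98%, and in astrocyte-like nuclei Cox6b1 (0.50 ± 0.13) and Cox8a (0.39 ± 0.10), 2 of 62, against 1.03%. No member was called in the cluster led by ATP6, ATP8 and ND4L (0 of 61), or in vascular-like (0 of 56), somatostatin interneuron-like (0 of 34), microglia-like (0 of 31) and immature neuron-like nuclei (0 of 25) by edgeR, where 5, 9, 8, 7 and 8 had an unadjusted p under 0.05. These were 8.20%, 16.1%, 23.5%, 22.6% and 32.0% of the members tested, against 7.90%, 7.03%, 11.4%, 6.68% and 9.16% of all genes. Differences of the coefficient between classes were not tested. Over 14 classes, 190 of 742 pairs were higher, against 3.57% of pairs over all genes. Against 2.08% over all genes, 1 pair, Ndufaf5 in glutamate neuron-like nuclei (-0.27 ± 0.09), was lower. Without the cluster of that class with the highest mitochondrial percent this was -0.20 ± 0.10 and not called (edgeR adjusted p = 0.17).

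With the median UMIs per nucleus of the library in place of the mitochondrial share, 0 of 80 members were called over all nuclei, against 1.14% of 13750 genes, and 21 (26.3%) had an unadjusted p under 0.05 by edgeR, against 17.4% of genes. The median coefficient was -0.17 over the nuclear and -0.49 over the mitochondrial members. Within classes 6 of 917 pairs of a member and a class were called, against 0.112% of pairs over all genes. All 6, among them Atp5o (0.87 ± 0.20) and Uqcr11 (0.97 ± 0.24), were higher with depth in the cluster led by ATP6, ATP8 and ND4L, and none was called without male mate 2 (14 without female peer 1).

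Neither the type of partner nor sex went with a called difference in any member. Mitochondrial members took 0.556% ± 0.137 of UMIs in female mate animals (SD, n = 11), 0.761% ± 0.256 in female peer (n = 8), 0.544% ± 0.160 in male mate (n = 11) and 0.624% ± 0.184 in male peer animals (n = 10). Nuclear members gave 8749 ± 738, 9474 ± 1821, 8309 ± 1292 and 8991 ± 1425 CPM in the same order. The groups overlapped in both sets, and 3 of the 8 female peer libraries were above all female mate libraries in the mitochondrial share. Glia-like nuclei took 22.1%, 23.9%, 21.2% and 21.9% of nuclei on average in that order.

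Over all nuclei, 80 members passed the filter. For mate minus peer, averaged over the sexes, 0 members were called by edgeR with Benjamini-Hochberg adjustment and 0 by DESeq2, against 0.0% of 13750 genes by edgeR, and 20 members (25.0%) had an unadjusted p under 0.05, against 7.64% of genes. The median log2 difference was -0.11 over nuclear members, -0.32 over mitochondrial members and -0.01 over all genes. The lowest p belonged to ATP6, a proton-channel subunit of the ATP synthase (-0.42 ± 0.12, edgeR adjusted p = 0.62). Its lowest, median and highest values were 98.8, 179 and 232 CPM in female mate, 172, 237 and 399 in female peer, 125, 166 and 232 in male mate and 145, 192 and 311 in male peer animals, so that all groups overlapped. ATP8 (-0.52 ± 0.15) and Uqcrb, a complex III subunit (-0.33 ± 0.11), came next, with edgeR adjusted p = 0.65 in both.

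For female minus male, 0 members were called by edgeR and 0 by DESeq2, against 0.0218% of genes, and 4 members (5.0%) had an unadjusted p under 0.05, against 8.07% of genes. The lowest p belonged to Ndufaf8 (-0.19 ± 0.07), Ndufs7 (0.24 ± 0.10) and Sdhc (0.24 ± 0.10), with edgeR adjusted p from 0.54 to 0.58. For the interaction of pairing and sex, 0 members were called by edgeR and 0 by DESeq2, against 0.0% of genes, with 0 members at an unadjusted p under 0.05, against 2.01% of genes. Uqcrc2, ND3 and ATP6 had the lowest p there, each with an edgeR adjusted p of 1.0.

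Within 16 classes, 0 of 1049 pairs of a member and a class were called by edgeR for pairing, for sex or for the interaction. Of all pairs of a gene and a class, 0.0%, 0.0192% and 0.0% were called. At an unadjusted p under 0.05 there were 100 member pairs (9.53%) for pairing, 27 (2.57%) for sex and 22 (2.10%) for the interaction, against 5.09%, 4.87% and 2.75% of all pairs. DESeq2 also called 0 member pairs for pairing and 0 for sex.

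ND4L varied more between libraries than any other member, and its share of the mitochondrial UMIs fell into separate ranges. In 30 libraries it was 4.09% to 7.16%, and in the other 10 it was 12.3% to 17.7%, with no library between. The 10 libraries were 3 of female mate, 2 of female peer, 2 of male mate and 3 of male peer animals, so that both ranges occurred in every group. In neuron-like nuclei the same libraries had 4.02% to 7.15% and 11.4% to 17.4%, and in glia-like nuclei 4.24% to 7.93% and 10.9% to 19.4%. In vertebrate mitochondrial DNA the ND4L and ND4 genes overlap and share 1 mRNA, as do ATP8 and ATP6. The share of ND4 was 4.44% to 5.24% in the 10 libraries (median 4.88%) and 5.21% to 7.38% in the 30 (median 6.06%). These ranges overlapped at their ends, while the median of ND4L was 15.0% and 5.75%. ND4L counts in the total of these shares, so a larger share of ND4L by itself lowers that of ND4. The labels give no factor that separates these libraries, and the cause was not tested.

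**Figure D5:**
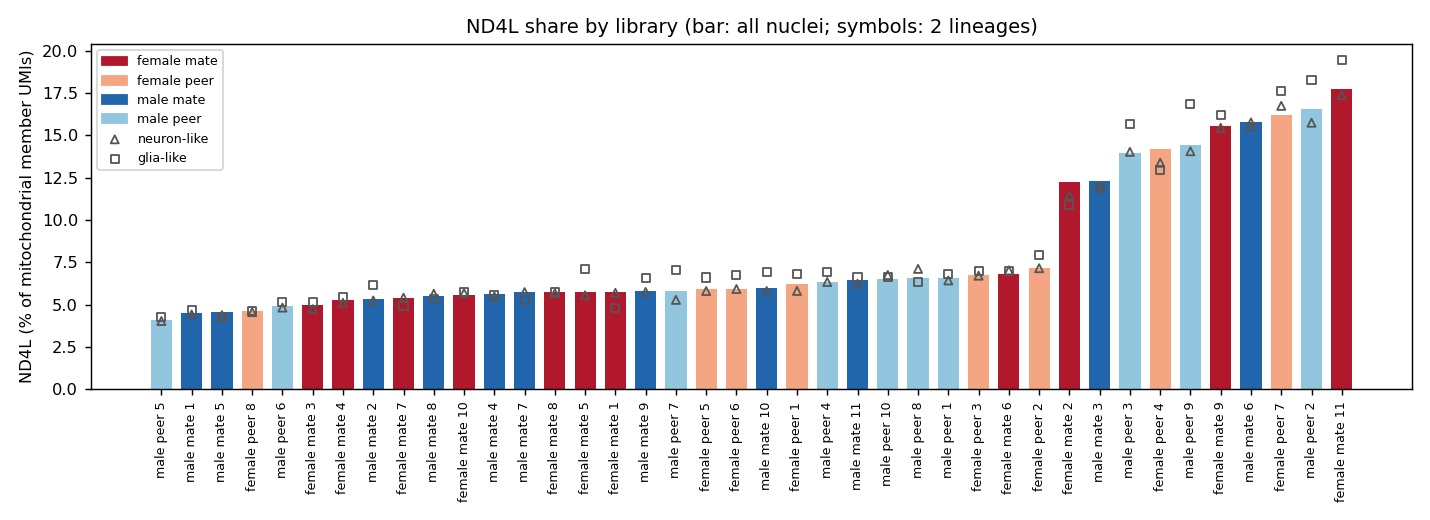
Each bar is 1 library's share of ND4L in the UMIs of the 13 mitochondrial members, ordered by that share and coloured by group, with neuron-like (triangles) and glia-like nuclei (squares) of the same library. The bars run from 4.09% to 7.16% in 30 libraries and from 12.3% to 17.7% in 10, and both symbols follow the bars.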

How the data were processed

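The files hold counts of UMIs by gene and barcode, deposited without normalization and made with Cell Ranger 3.1.0, per the submitters' processing notes; the genome build and annotation release are not given in the sources used here, nor is how reads shared by near-identical copies or overlapping genes were assigned. Barcodes with at least 500 UMIs were kept (188143). Doublets were the highest-scored barcodes of each library at an assumed 0.8% per 1000 barcodes (7778, or 4.13%). Nuclei were clustered with scanpy 1.11.5 (2000 variable genes without the members, 30 principal components, 15 neighbours, Leiden resolution 1.5) into 40 clusters, some split again. A cluster was named from marker lists, by scoring set after the clusters had been seen.

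UMIs were summed per animal and class, with at least 20 nuclei. Tests used edgeR 4.0.16 (R 4.3.3, quasi-likelihood, TMM, filterByExpr, Benjamini-Hochberg over all genes, or all gene and class pairs for pairing, sex and their interaction; threshold 0.05). The animal was a block where classes were compared, since both sums come from it; group contrasts used 1 mean per group, and the replicate numbers pair no animals. Fits on the mitochondrial share or depth kept the group means and classes with at least 30 animals. DESeq2 1.42.0 was an alternative; leaving out mature oligodendrocyte-like nuclei or 1 glutamate neuron-like cluster, and the share without ND4L, were chosen after seeing the data. Scripts were tested on simulated data.

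Depth per library limits precision for rare isoforms, whose shares are given without an estimate of counting error. The members and lists were chosen with earlier results of these data known. Named members are, per comparison, up to 10 called with the largest change at a mean of at least 1 CPM, or the 3 with the lowest p, plus the mitochondrial genes and isoform groups. Cox6a1, Cox7a2, Cox7b2 and Cycs were not used here.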

Additional observations from a re-analysis of the deposited data

Results flagged for a closer look

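In 62 combinations of 1 measure and 1 group, with 8 or 10 animals each, the highest and lowest library were compared with their nearest neighbour (Dixon's criterion at 95%). A measure was a member, the level of 1 of the 2 gene sets, or their log2 ratio. Of the 62 combinations 4 had a library apart, where chance gives about 1 in 20. The mate groups, of 11 animals, were not tested in this way. ND4L was at 1575 CPM in female peer 7, with the next library of its group at 808, and at 1733 in male peer 2, with the next at 727. Both are among the 10 libraries in the higher range of ND4L. ND6 was at 411 in female peer 1, with the next female peer library at 224. Cox4i2 was at 14.0 in male peer 8, with the next male peer library at 7.04, and vascular-like nuclei made up 1.90% of that library. No member passed a test of the difference in pairing effect between the sexes.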

How the results depend on the processing

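The members called between neuron-like and glia-like nuclei numbered 69, and 64 to 77 under the alternatives, which included DESeq2 size factors, no filter on low counts, barcodes over 5% mitochondrial left out, called doublets kept, and leaving out male mate 2 or female peer 1. With no replicate block, that is without the animal as block, 64 were called. For classes against other nuclei the 891 pairs became 763 without the block and 884 to 946 otherwise. With the mitochondrial share, 58 nuclear members became 57 or 58. This held also in separate fits with depth in the model, with the share taken without ND4L, and without the glutamate neuron-like cluster of highest mitochondrial percent. In the last of these fits the covariate still included the UMIs of that cluster. The 190 pairs that were higher within classes became 163 to 258. Counts for pairing, sex and, over all nuclei, their interaction stayed at 0 under the alternatives run. The 6 pairs called with depth within classes became 10 with DESeq2 size factors, 0 with called doublets kept, 30 with the mitochondrial percent added, 14 without female peer 1 and 0 without male mate 2, and the cause was not tested. The mean log2 ratio of the sets in glia-like nuclei went from -0.14 to 0.0054 with each nucleus thinned to 500 UMIs, and to -0.64 with at least 1000 UMIs. At that minimum the mitochondrial percent went to 1.18% in glia-like and 2.08% in mature oligodendrocyte-like nuclei. Cox7a1 lost its call with the mitochondrial share when depth was added (0.70). Glia-like nuclei hold few UMIs, which limits the rare members there.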
